A study of Mus musculus with 10 samples.

Results

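The 9 genes described here encode enzymes of the tricarboxylic acid cycle: Cs, Idh1, Idh2, Idh3a, Ogdh, Suclg1, Fh1, Mdh1 and Mdh2. They were taken by gene symbol from a table of 24525 genes, and all 9 were found in it and passed the filter of a mean of at least 1 FPKM, as did 13016 genes in all. FPKM is the number of fragments per kilobase of transcript, scaled to the size of the library, so levels of different genes can be set side by side per length. RNA sequencing was done on 5 colorectal tumours and 5 pieces of adjacent colon from mice given azoxymethane (AOM) and dextran sulfate sodium (DSS), and the comparison asks how expression in tumours differs from that in adjacent tissue. AOM is a carcinogen and DSS a detergent-like irritant of the colonic lining, and together they give colitis-associated tumours.

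Both groups came from male mice of strain C57BL/6, given as C57BL/6N in the protocol. These mice are given as aged 7 weeks, which cannot be the age at collection, 10 weeks after AOM. They received AOM at 12.5 mg/kg once and, from 1 week later, 3 cycles of 2% DSS for 5 days and plain water for 16 days, and the label of every library gives 10 weeks after AOM. The adjacent tissue was therefore exposed to both agents as well, and no library carries a label of the 3 mice left untreated. Titles number the libraries 1 to 5 within each tissue while the source label gives a single mouse for all 10, so it is not known which came from 1 animal. The p-values therefore cover the spread between these 10 pieces of tissue only, and animals may vary more. Each library is whole tissue, in which fewer cells of a type and less RNA per cell cannot be told apart.

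The cycle runs in the mitochondrial matrix. Citrate synthase joins acetyl groups to oxaloacetate, the isocitrate dehydrogenases form 2-oxoglutarate from the isomer of the citrate so made, and the 2-oxoglutarate dehydrogenase complex, succinyl-CoA ligase, succinate dehydrogenase, fumarase and malate dehydrogenase return it to oxaloacetate. The cycle feeds electrons to the respiratory chain and supplies citrate and 2-oxoglutarate for synthesis. Mature colonocytes are known to oxidise butyrate from the gut lumen through it. A pair of the 9 enzymes work outside the mitochondrion: Idh1 and Mdh1 are the cytosolic counterparts of Idh2 and Mdh2.

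Promoter sequence is shown for the 3 members with the largest changes, Cs and Suclg1, which were lower in tumours, and Idh2, which was higher. RefSeq windows of GRCm38.p6, from 250 bases before to 50 after a start site, were found for 8 of the 9 genes. Printed, 5′ to 3′ on the gene's strand, is the part of each window that lies before both the RefSeq and the GENCODE start, with each match to CCAAT on either strand in capitals.
Cs promoter, chr10:128337477-128337726, plus strand: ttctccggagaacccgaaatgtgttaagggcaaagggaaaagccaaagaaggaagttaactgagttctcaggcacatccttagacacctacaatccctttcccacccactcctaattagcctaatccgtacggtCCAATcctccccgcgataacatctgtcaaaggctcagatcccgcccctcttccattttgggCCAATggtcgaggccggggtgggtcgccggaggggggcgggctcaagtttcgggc
Suclg1 promoter, chr6:73248255-73248381, plus strand: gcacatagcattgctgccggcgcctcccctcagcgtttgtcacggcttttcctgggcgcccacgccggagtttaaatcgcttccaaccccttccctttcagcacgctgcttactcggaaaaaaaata
Idh2 promoter, chr7:80115393-80115600, minus strand: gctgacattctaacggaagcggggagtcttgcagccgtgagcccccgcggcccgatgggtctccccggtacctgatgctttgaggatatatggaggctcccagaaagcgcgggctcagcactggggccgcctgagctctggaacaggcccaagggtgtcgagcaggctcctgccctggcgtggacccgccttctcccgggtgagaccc
The printed part for Cs holds 2 matches, and those for Suclg1 and Idh2 hold 0. Over the full windows CCAAT was found for 6 of 8 members, Cs, Fh1, Idh1, Idh2, Mdh1 and Ogdh, so for genes lower and for genes higher in tumours, and in 37.4% of all 32851 windows. The element AAGGTCA of the estrogen-related receptors, the E-box CACGTG and the core GCGCATG of the NRF1 site, each searched on both strands and none containing another, were found only for Ogdh among the 8, and in 4.7%, 7.2% and 3.9% of all windows. A member counted when any of its windows held a match, while the percentages are of single windows, so the counts and percentages are not like for like. A match is a description of the letters, not a site.

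In tumours Cs, Suclg1, Ogdh and Mdh1 fell, the isocitrate dehydrogenase genes Idh1, Idh2 and Idh3a rose, and Fh1 and Mdh2 did not pass an adjusted p of 0.05. Thus 7 of the 9 passed, where 76.5% of all 13016 genes did, so that passing is near the background. The directions were 4 falls and 3 rises among the 9, against 19.3% of all genes called lower and 57.2% called higher. Tumours lay wholly below adjacent samples for 4 of the 9, beside 14.3% of all genes. They lay wholly above them for 1, Idh1, beside 46.5% of all genes. The median log2 change of the 9 was -0.11, beside 0.35 over all genes tested. That general shift of 0.35 depends on how libraries are scaled: with each library's median subtracted 67.7% of all genes passed, 33.3% lower and 34.5% higher, and with quantile normalization 66.8% passed, 30.2% lower and 36.6% higher.

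With medians subtracted the 4 falls stood, none of the 9 was called higher, and Fh1 and Mdh2 were called lower as well, for 6 falls and 0 rises, and 0 were higher at an unadjusted limma p under 0.05 too. With quantile normalization the counts were again 4 and 3. The falls of Cs, Suclg1, Ogdh and Mdh1 thus held under all 3 scalings, and the rises of the isocitrate dehydrogenases under 2 of the 3.

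**Figure D1:**
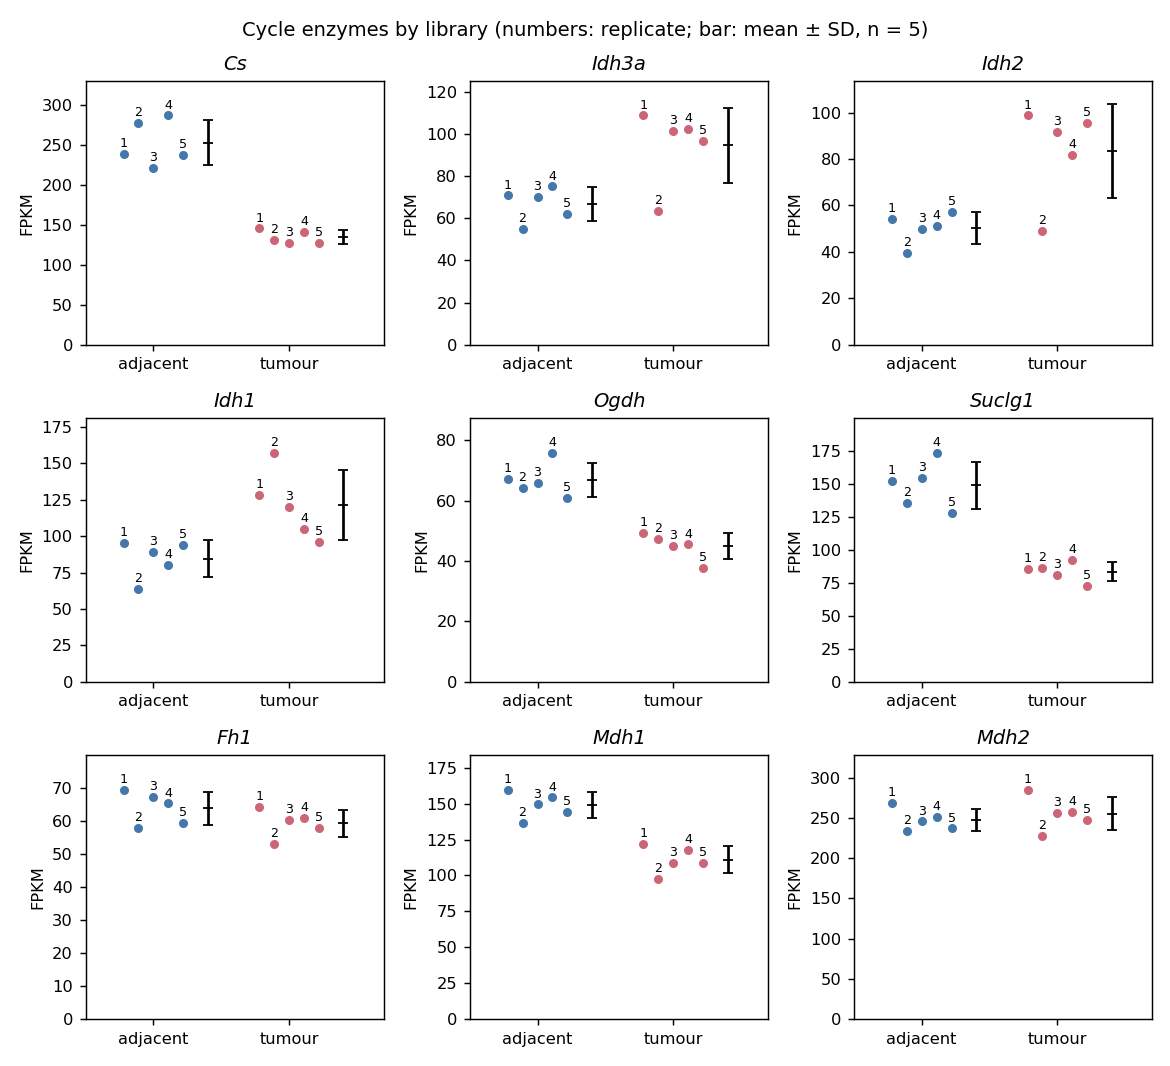
FPKM of the 9 enzymes in each library, with adjacent samples in blue and tumours in red, replicate numbers beside the points, and mean ± SD (n = 5 per group) as bars. Tumours lie below every adjacent sample for Cs, Ogdh, Suclg1 and Mdh1 and above every adjacent sample for Idh1, and tumour 2 lies apart from the other tumours for Idh2 and Idh3a.

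Cs, citrate synthase (chromosome 10, 128337734 to 128362479, GRCm38), makes the first product of the cycle. Its levels were 239, 277, 222, 287 and 238 FPKM in adjacent samples 1 to 5 and 145, 131, 127, 141 and 128 FPKM in tumours 1 to 5. No tumour reached the lowest adjacent sample, and the means were 253 ± 28.1 FPKM in adjacent tissue and 135 ± 8.28 FPKM in tumours (SD, n = 5 per group). The log2 change was -0.90 ± 0.084 (SE; adjusted p = 1.90e-05 by limma). It was the largest fall of the 9.

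Suclg1 (chromosome 6, 73248382 to 73276911) encodes the alpha subunit of succinyl-CoA ligase, which both forms of that enzyme share. The 5 adjacent samples had 152, 136, 155, 174 and 128 FPKM in order of number, and the 5 tumours 85.2, 86.0, 80.9, 92.5 and 72.7 FPKM. The groups did not overlap, with means of 149 ± 17.9 FPKM in adjacent tissue and 83.5 ± 7.32 FPKM in tumours (SD, n = 5 per group). The log2 change was -0.82 ± 0.095 (SE; adjusted p = 3.71e-05 by limma). Adjacent sample 4 was the highest and tumour 5 the lowest.

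Ogdh (chromosome 11, 6291633 to 6356642) encodes the E1 component of the 2-oxoglutarate dehydrogenase complex, one of the steps that cannot run backwards in the cell. Adjacent samples 1 to 5 were at 67.4, 64.2, 66.1, 76.0 and 61.1 FPKM, and tumours 1 to 5 at 49.3, 47.4, 45.0, 45.5 and 37.9 FPKM. All tumours were below all adjacent samples, with means of 67.0 ± 5.59 FPKM in adjacent tissue and 45.0 ± 4.35 FPKM in tumours (SD, n = 5 per group), and its log2 change was -0.56 ± 0.084 (SE; adjusted p = 1.47e-04 by limma). Its relative Ogdhl was at 0.12 to 2.78 FPKM over the libraries.

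The malate dehydrogenases convert malate and oxaloacetate into each other. Mdh2 (chromosome 5, 135778480 to 135790398) encodes the mitochondrial enzyme of the cycle. Its levels were 268, 234, 246, 251 and 237 FPKM in adjacent samples 1 to 5 and 285, 228, 256, 258 and 248 FPKM in tumours 1 to 5. The ranges overlapped, with means of 247 ± 13.7 FPKM in adjacent tissue and 255 ± 20.5 FPKM in tumours (SD, n = 5 per group), and the log2 change of 0.043 ± 0.072 (SE; adjusted p = 0.592 by limma) did not pass. With medians subtracted the sign turned and the gene was called lower, at -0.29 (limma adjusted p = 0.00281).

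Mdh1 (chromosome 11, 21556787 to 21572367) encodes the cytosolic enzyme, which passes reducing equivalents to mitochondria in the malate-aspartate shuttle. The 5 adjacent samples had 159.8, 137, 149, 154 and 144 FPKM in order of number, and the 5 tumours 122, 97.8, 108, 118 and 109 FPKM. Every tumour was below every adjacent sample, with means of 149 ± 8.97 FPKM in adjacent tissue and 111 ± 9.39 FPKM in tumours (SD, n = 5 per group), and its log2 change was -0.42 ± 0.074 (SE; adjusted p = 4.08e-04 by limma). Exons of Mdh1 share 52 bases with Wdpcp on the opposite strand, a gene at 0.77 to 2.15 FPKM here.

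A ratio of FPKM values within a library is unchanged by any single factor applied to the whole library; quantile normalization is not such a factor, and the ratios were not tested under it. The ratio of Mdh2 to Mdh1 was 1.68, 1.71, 1.64, 1.63 and 1.64 in adjacent samples 1 to 5 and 2.34, 2.33, 2.36, 2.19 and 2.28 in tumours 1 to 5. The groups did not overlap, and the spread within each was small. The log2 ratio was 0.73 ± 0.029 and 1.202 ± 0.043 (SD, n = 5 per group), a difference of 0.47 (two-sided exact permutation p = 0.00794, the smallest that 5 against 5 allows; adjusted p = 0.0159 over 4 ratios).

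Fh1 (chromosome 1, 175600374 to 175625635), fumarase, hydrates fumarate to malate. Adjacent samples 1 to 5 were at 69.6, 57.9, 67.4, 65.4 and 59.5 FPKM, and tumours 1 to 5 at 64.2, 53.1, 60.5, 60.9 and 57.9 FPKM. Each tumour was lower than the adjacent sample of the same number, which need not come from the same animal. The ranges overlapped, with means of 63.9 ± 5.06 FPKM in adjacent tissue and 59.3 ± 4.15 FPKM in tumours (SD, n = 5 per group). The log2 change of -0.11 ± 0.074 (SE; adjusted p = 0.211 by limma) did not pass, and with medians subtracted it did, at -0.44 (limma adjusted p = 1.74e-04). Adjacent sample 2 and tumour 2 were the lowest of their groups.

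Isocitrate dehydrogenases form 2-oxoglutarate from isocitrate. Idh3a encodes the catalytic subunit of the NAD-dependent enzyme of the cycle, Idh2 the mitochondrial NADP-dependent enzyme and Idh1 its cytosolic counterpart, a source of NADPH. Idh2 (chromosome 7, 80094846 to 80115392) had the largest rise of the 9. Its levels were 54.0, 39.4, 49.8, 51.0 and 57.3 FPKM in adjacent samples 1 to 5 and 98.8, 49.2, 91.6, 81.6 and 95.5 FPKM in tumours 1 to 5. Tumours 1, 3, 4 and 5 were above every adjacent sample, and tumour 2 lay within the adjacent range. The means were 50.3 ± 6.76 FPKM in adjacent tissue and 83.3 ± 20.2 FPKM in tumours (SD, n = 5 per group), and the difference on the log2 scale was 0.69 ± 0.18 (SE; adjusted p = 0.0056 by limma). Without tumour 2 the change was 0.86, since that library is the lowest of the 5. With medians subtracted the call was lost, at 0.36 (limma adjusted p = 0.0763).

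Idh3a (chromosome 9, 54586334 to 54604661) had a like pattern. The 5 adjacent samples had 70.8, 55.0, 70.2, 75.1 and 61.9 FPKM in order of number, and the 5 tumours 109, 63.5, 101, 103 and 96.7 FPKM. Again tumour 2 alone fell within the adjacent range, and the means were 66.6 ± 8.05 FPKM in adjacent tissue and 94.6 ± 17.9 FPKM in tumours (SD, n = 5 per group). The log2 change was 0.48 ± 0.15 (SE; adjusted p = 0.0107 by limma), and 0.62 without tumour 2. With medians subtracted it was 0.15 (limma adjusted p = 0.325) and did not pass.

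Idh1 (chromosome 1, 65158616 to 65186500) differed from both in which tumour was extreme. Adjacent samples 1 to 5 were at 95.1, 64.0, 88.9, 80.3 and 93.8 FPKM, and tumours 1 to 5 at 128, 157, 120.3, 105 and 95.8 FPKM. Here tumour 2 was the highest library of all, and tumour 5 was only just above adjacent sample 1. The groups did not overlap, as for 46.5% of all genes with tumours above, and the means were 84.4 ± 12.8 FPKM in adjacent tissue and 121 ± 23.8 FPKM in tumours (SD, n = 5 per group). The log2 change was 0.51 ± 0.15 (SE; adjusted p = 0.00818 by limma), and 0.18 (limma adjusted p = 0.275) with medians subtracted, which did not pass.

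The ratio of mitochondrial to cytosolic NADP-dependent enzyme, Idh2 to Idh1, was 0.568, 0.615, 0.560, 0.635 and 0.611 in adjacent samples 1 to 5 and 0.771, 0.312, 0.761, 0.776 and 0.997 in tumours 1 to 5. It was higher in 4 tumours than in any adjacent sample and lower in tumour 2 than in any of them. The difference in log2 ratio was 0.18 (two-sided exact permutation p = 0.611; adjusted p = 0.611 over 4 ratios) and did not pass. Without tumour 2 it was 0.46 (exact permutation adjusted p = 0.0106), so this library decided the result. The ratio of Idh3a to Idh2 ranged from 1.08 to 1.47 in adjacent tissue and from 1.01 to 1.29 in tumours. Its log2 difference of -0.21 (exact permutation p = 0.0873; adjusted p = 0.116) did not pass, but without adjacent sample 5 it was -0.28 (exact permutation adjusted p = 0.0317).

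**Figure D2:**
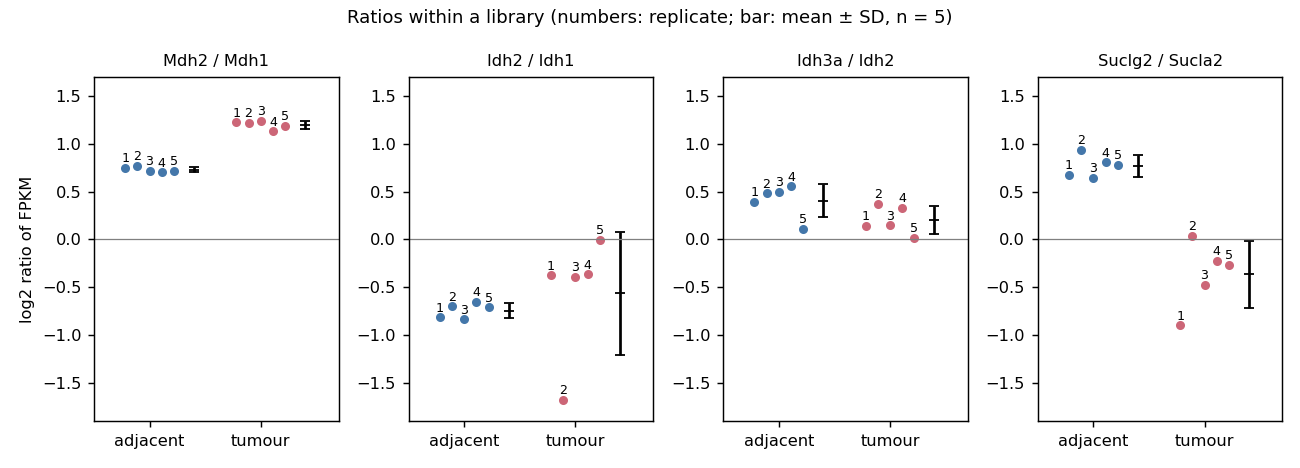
Log2 ratio of FPKM of 4 gene pairs in each library, with mean ± SD (n = 5 per group) as bars. The groups are apart for Mdh2 to Mdh1 and for Suclg2 to Sucla2, and tumour 2 lies below all other libraries for Idh2 to Idh1.

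NAD-dependent isocitrate dehydrogenase is built from Idh3a with the regulatory subunits Idh3b and Idh3g, which are not among the 9. While Idh3a rose, Idh3b fell and Idh3g was slightly lower. Idh3b was at 128, 115, 119.7, 131 and 99.0 FPKM in adjacent samples 1 to 5 and at 85.5, 87.0, 51.9, 85.1 and 76.0 FPKM in tumours 1 to 5, with no overlap, and its log2 change was -0.63 ± 0.14 (SE; adjusted p = 0.00207 by limma). Exons of Idh3b share 5 bases with Nop56 on the opposite strand, a gene at 20.93 to 83.93 FPKM. Idh3g was at 83.5 ± 4.80 and 75.2 ± 3.07 FPKM (mean ± SD over 5 libraries each), and its log2 change of -0.15 ± 0.060 (SE; adjusted p = 0.042 by limma) was lost with quantile normalization (limma adjusted p = 0.0511) and without each of 7 of the 10 libraries (adjacent 1, 3 and 4 and tumours 1, 2, 3 and 5).

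These subunit ratios were computed after the values were seen and are given without a test. Idh3a to Idh3b was 0.554, 0.479, 0.587, 0.572 and 0.625 in adjacent samples 1 to 5 and 1.27, 0.730, 1.96, 1.21 and 1.27 in tumours 1 to 5. Tumour 2 was the nearest to adjacent tissue and tumour 3 the farthest. Idh3a to Idh3g ranged from 0.690 to 0.846 in adjacent tissue and from 0.896 to 1.48 in tumours. Both ratios were above the whole adjacent range in all 5 tumours.

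**Figure D3:**
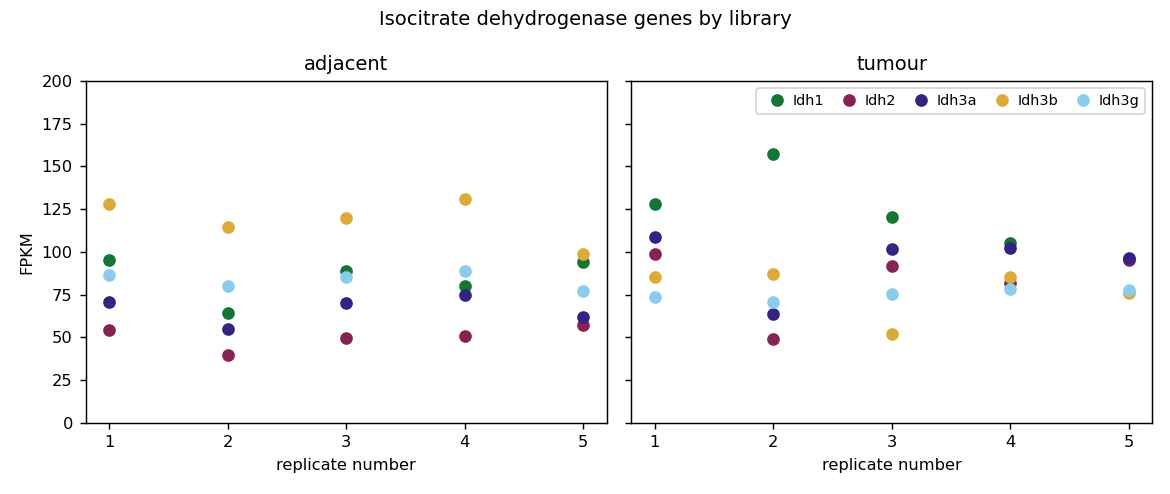
FPKM of the 5 isocitrate dehydrogenase genes in each adjacent sample (left) and each tumour (right), by replicate number. Idh3b is the highest of the 5 in every adjacent sample and Idh1 in all tumours but tumour 5, where Idh3a is marginally above it; in tumour 2 Idh1 is high while Idh2 and Idh3a are low.

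The order of the 9 levels differed between the tissues. In adjacent tissue Cs and Mdh2 were the most abundant with overlapping ranges, followed by Mdh1 and Suclg1, which overlapped each other but not Mdh2 or Idh1. Idh1, Ogdh, Idh3a and Fh1 came next, each overlapping its neighbour, and Idh2 was the lowest and below all values of Fh1. In tumours Mdh2 stood alone, above Cs in every library. From Cs through Idh1, Mdh1, Idh3a, Suclg1 and Idh2 to Fh1 neighbouring ranges overlapped, and Ogdh was the lowest, below all values of Fh1. The sum of the 9 was 1064 to 1214 FPKM in adjacent samples and 914 to 1087 FPKM in tumours, ranges that overlap.

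Tumour 2 was the lowest tumour for 5 of the 9 enzymes and the highest for 1, Idh1. Tumour 1 was the highest tumour for 7. Among adjacent samples, number 2 was the lowest for 6, and numbers 1 and 4 were the highest for 4 each.

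A list of 11 other genes of the cycle held no gene called higher by limma, and 0 at an unadjusted p under 0.05. Of the 11, 8 fell and 3 did not pass, with a median log2 change of -0.51, and all 11 were called lower with medians subtracted and 7 with quantile normalization. Aco1, known also as an iron-regulatory protein of the cytosol, was counted among the cycle genes here although the cycle runs in mitochondria. Aco1 was at 28.1 ± 2.15 and 29.4 ± 0.630 FPKM (SD, n = 5 per group). Its log2 change of 0.066 ± 0.062 (SE; adjusted p = 0.343 by limma) did not pass, and its sign turned under the other 2 scalings, to -0.26 and -0.095.

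Succinate dehydrogenase, which is also complex II of the respiratory chain, was lower in all 4 subunits. The flavoprotein Sdha fell by 0.60 on the log2 scale (SE 0.060), the iron-sulfur protein Sdhb by 0.71 (SE 0.075), and the membrane anchors Sdhc and Sdhd by 0.51 (SE 0.078) and 0.57 (SE 0.081), with limma adjusted p of 1.73e-04 or lower. All tumours were below all adjacent samples for each of the 4. Sdha was at 145, 135, 143, 150.4 and 141 FPKM in adjacent samples 1 to 5 and 95.4, 99.0, 88.4, 98.0 and 88.2 FPKM in tumours 1 to 5. Of the partners of Ogdh in its complex, Dld, the E3 component that several dehydrogenase complexes share, fell by 0.36 (SE 0.087; limma adjusted p = 0.00299). Dlst, the E2 component, was at 71.4 ± 7.12 and 64.2 ± 5.18 FPKM (mean ± SD over 5 libraries each), and its log2 change of -0.15 ± 0.085 (SE; adjusted p = 0.128 by limma) did not pass. It passed with medians subtracted, at -0.48 (limma adjusted p = 6.50e-04), and without adjacent sample 5.

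The alpha subunit Suclg1 pairs with Suclg2 in the GTP-forming enzyme and with Sucla2 in the ATP-forming enzyme. Suclg2 had the largest fall of the 20 cycle genes described. Its levels were 59.3, 58.6, 57.7, 62.5 and 53.6 FPKM in adjacent samples 1 to 5 and 22.3, 33.6, 25.4, 30.0 and 29.1 FPKM in tumours 1 to 5, and its log2 change was -1.04 ± 0.10 (SE; adjusted p = 2.12e-05 by limma). Sucla2 was at 34.3 ± 3.17 and 35.9 ± 3.29 FPKM (SD, n = 5 per group), and its log2 change of 0.067 ± 0.083 (SE; adjusted p = 0.476 by limma) did not pass; the sign turned with medians subtracted, to -0.26, and with quantile normalization, to -0.054.

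The ratio of Suclg2 to Sucla2 was 1.60, 1.92, 1.57, 1.75 and 1.72 in adjacent samples 1 to 5 and 0.537, 1.02, 0.718, 0.855 and 0.831 in tumours 1 to 5. Every tumour was below every adjacent sample, and 4 of 5 tumours had more Sucla2 than Suclg2 while no adjacent sample did. The log2 ratio was 0.77 ± 0.12 and -0.37 ± 0.35 (SD, n = 5 per group), a difference of -1.14 (two-sided exact permutation p = 0.00794; adjusted p = 0.0159 over 4 ratios).

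**Figure D4:**
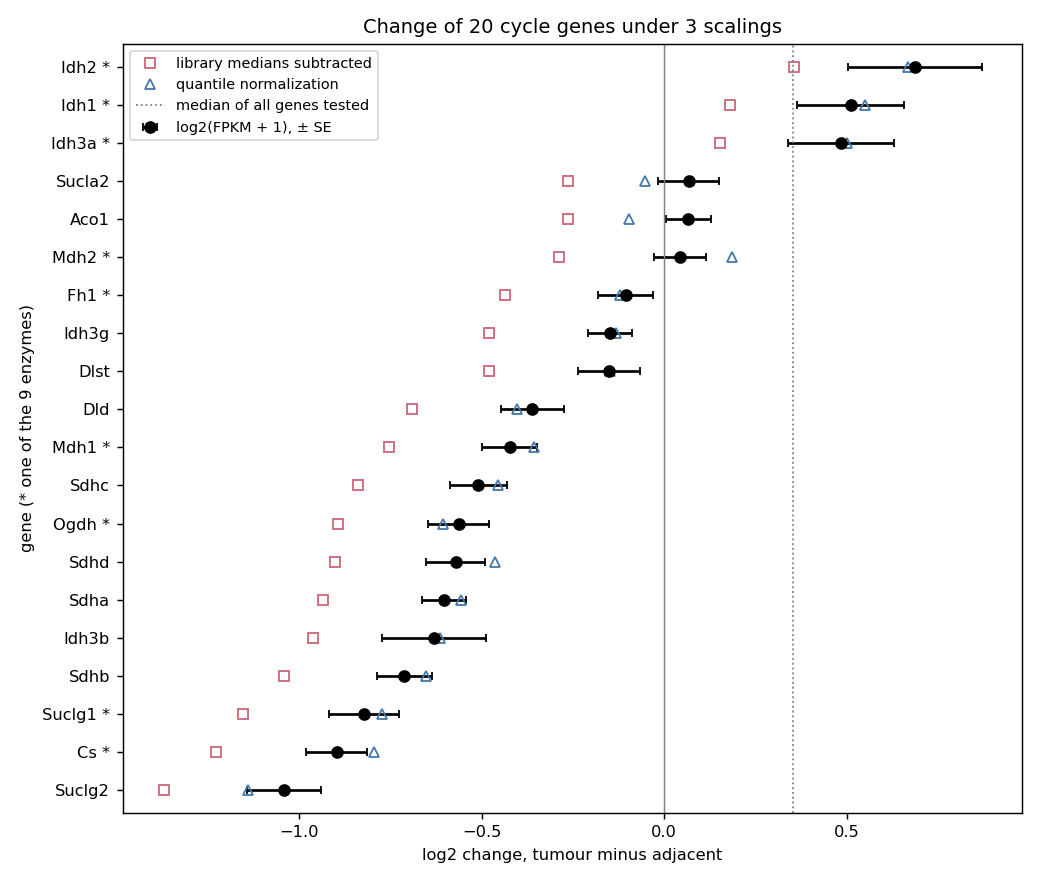
Log2 change, tumour minus adjacent, of the 20 cycle genes, with the SE from limma on the log2(FPKM + 1) scale and the change under 2 other scalings. Only Idh1, Idh2 and Idh3a lie right of the median of all genes tested (0.35, dotted), and subtracting library medians moves all 20 to the left by about that amount.

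The 20 cycle genes together made up 0.437% to 0.501% of the total FPKM of adjacent samples and 0.355% to 0.416% of that of tumours. These ranges do not overlap, and 12 of the 20 genes fell and 3 rose.

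Genes that feed, drain or accompany the cycle moved in both directions. List counts, here and in other paragraphs, are to be read beside the shares of all genes tested. These were 57.2% called higher and 19.3% lower, with medians subtracted 34.5% and 33.3%, and with quantile normalization 36.6% and 30.2%. Of 13 genes of pyruvate entry 4 rose and 6 fell, but none rose under either other scaling, also at an unadjusted limma p under 0.05. Pdk2, a kinase that inhibits pyruvate dehydrogenase, fell from 23.8 ± 5.06 to 9.32 ± 1.34 FPKM (mean ± SD over 5 libraries each), and its log2 change was -1.25 ± 0.14 (SE; adjusted p = 3.55e-05 by limma), and Mpc2, a subunit of the mitochondrial pyruvate carrier, fell by 0.63 (SE 0.10). The kinase gene Pdk4 rose by 0.71 (SE 0.21) and the phosphatase gene Pdp1 by 0.46 (SE 0.12), calls lost under both other scalings.

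Of 11 genes that refill or draw on the cycle, 10 were tested, 4 rose and 3 fell; with medians subtracted 1 rose and 5 fell, and with quantile normalization 2 rose and 3 fell. Pck1, the cytosolic enzyme that turns oxaloacetate into phosphoenolpyruvate, was at 50.9, 55.9, 46.3, 58.8 and 50.6 FPKM in adjacent samples 1 to 5 and 1.17, 3.79, 1.00, 5.97 and 1.5 FPKM in tumours 1 to 5. Its log2 change was -4.04 ± 0.32 (SE; adjusted p = 1.40e-05 by limma), with tumour 4 the highest tumour. Pcx, pyruvate carboxylase, which makes oxaloacetate, fell from 34.9 ± 7.71 to 8.76 ± 1.97 FPKM (mean ± SD over 5 libraries each), and its log2 change was -1.87 ± 0.18 (SE; adjusted p = 1.90e-05 by limma). The glutaminase gene Gls2 rose from 0.812 ± 0.420 to 5.28 ± 3.46 FPKM, which was 1.63 ± 0.36 (SE; adjusted p = 0.002 by limma) on the log2 scale. Pck2, the mitochondrial counterpart of Pck1, rose by 0.27 (SE 0.11; limma adjusted p = 0.0406), a call lost under both other scalings, where its sign turned, and also with no filter on low values and without each of 6 of the 10 libraries (adjacent 2, 3 and 5 and tumours 1, 3 and 5). Me3 was below the filter.

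Of the 5 partners of Mdh1 and Mdh2 in the malate-aspartate shuttle, 1 rose and 2 fell; with medians subtracted 1 rose and 4 fell, and with quantile normalization 1 rose and 3 fell. The mitochondrial transaminase Got2 rose from 37.6 ± 4.67 to 61.3 ± 8.86 FPKM (mean ± SD over 5 libraries each), and its log2 change was 0.69 ± 0.12 (SE; adjusted p = 4.36e-04 by limma), also with medians subtracted (0.36). Its cytosolic counterpart Got1 fell by 0.49 (SE 0.14) and the carrier Slc25a13 by 0.66 (SE 0.17). Of 5 genes of citrate export and use, 3 rose and 2 fell, and with medians subtracted 2 rose and 2 fell. Fasn, fatty acid synthase, rose by 1.10 (SE 0.18) and Acaca, which makes malonyl-CoA, by 0.57 (SE 0.080). Acss2, which makes acetyl-CoA from acetate, fell by 1.73 (SE 0.16), and Acly, which splits citrate, by 0.28 (SE 0.079). All 4 of these calls held under the other scalings.

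Beside Idh1 and Idh2, 3 of 5 other sources of NADPH rose and none fell, and with medians subtracted 2 rose and 1 fell. These rises are near the shares of all genes called higher, 57.2% and, with medians subtracted, 34.5%. Mthfd2, a mitochondrial folate enzyme, rose by 0.96 (SE 0.12) and G6pdx, the entry enzyme of the pentose phosphate pathway, by 0.61 (SE 0.11), both also under the other scalings. Of 5 genes of metabolites beside the cycle, 3 were tested, 1 rose and 1 fell, and 1 rose and 2 fell under each other scaling. Acod1, which makes itaconate and is known from activated macrophages, rose from 0.888 ± 0.910 to 7.16 ± 4.87 FPKM (mean ± SD over 5 libraries each), and its log2 change was 2.04 ± 0.40 (SE; adjusted p = 8.97e-04 by limma). Fahd1, an oxaloacetate decarboxylase, fell by 1.68 (SE 0.094).

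Of 11 regulators of mitochondrial genes, 10 were tested, 4 rose and 3 fell; 2 rose under each other scaling, where 3 and 5 fell. Esrra, an estrogen-related receptor, fell from 85.1 ± 7.05 to 45.8 ± 6.07 FPKM (mean ± SD over 5 libraries each), and its log2 change was -0.89 ± 0.098 (SE; adjusted p = 3.15e-05 by limma), and its coactivator Ppargc1b fell by 1.93 (SE 0.16). The growth-promoting transcription factor Myc rose by 1.28 (SE 0.11) and Pprc1, another coactivator of the same family, by 1.09 (SE 0.15). Of 9 abundant mitochondrial proteins outside the cycle and the respiratory chain, 7 rose and 2 fell, with a median of 0.35, and with medians subtracted 4 rose and 2 fell. The chaperonin Hspd1 rose by 0.78 (SE 0.13) and the import receptor Tomm20 by 0.74 (SE 0.096), while the outer membrane channels Vdac1 and Vdac2 fell by 0.42 (SE 0.060) and 0.48 (SE 0.089). Each of these 8 calls held under the other scalings.

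**Figure D5:**
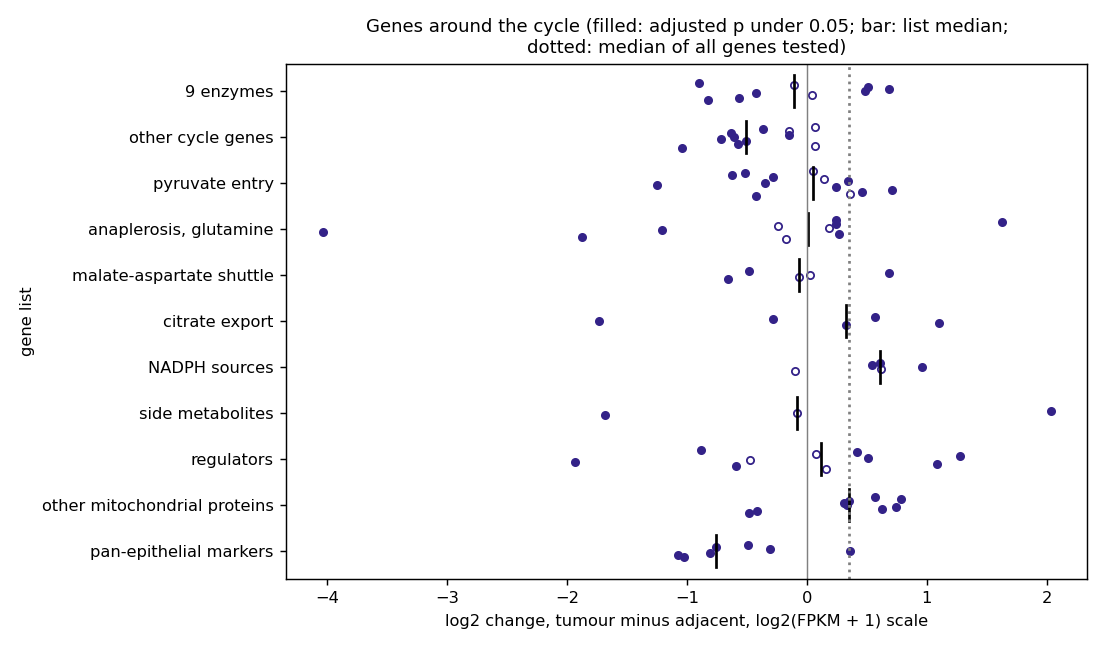
Log2 change, tumour minus adjacent, of each tested gene in 11 lists, with filled points for an adjusted p under 0.05, a bar at each list's median and a dotted line at the median of all genes tested (0.35). The medians of 10 of the 11 lists lie at or left of the dotted line, among them the 9 enzymes (-0.11), the other cycle genes (-0.51) and the pan-epithelial markers (-0.75), and that of the NADPH sources (0.61) lies right of it.

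Markers of cell types also differed between the tissues. Of 7 pan-epithelial markers 6 fell and 1 rose, with a median log2 change of -0.75: Krt8 at -1.07, Vil1 at -1.02, Krt19 at -0.81, Cldn7 at -0.75, Cdh1 at -0.49, Epcam at -0.31 and Krt18 at 0.36. The rise of Krt18 was lost with medians subtracted (limma adjusted p = 0.843). Their summed FPKM was 7094 to 8709 in adjacent samples and 3987 to 6199.9 in tumours, and all 7 were detected in every library. For 7 absorptive colonocyte markers, all of which fell, the sum was 2973 to 4873 in adjacent samples and 128 to 978 in tumours, and for 7 goblet cell markers, which all fell too, 15136 to 18562 in adjacent samples and 1461 to 4291 in tumours. For 7 fibroblast markers, which all rose, it was 85.1 to 214 in adjacent samples and 599.6 to 1013 in tumours, and for 5 endothelial markers, which all rose, 10.1 to 21.6 in adjacent samples and 36.2 to 57.6 in tumours. Of the 5, Tek lost its call with medians subtracted (limma adjusted p = 0.0743) and with quantile normalization (limma adjusted p = 0.188).

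All 6 macrophage markers rose, with sums of 68.4 to 207 in adjacent samples and 445 to 756 in tumours, and all 5 neutrophil markers, with 12.2 to 144 in adjacent samples and 140.4 to 447 in tumours. Of 6 smooth muscle markers 3 rose and none fell, and 2 rose with medians subtracted (39.6 to 119 in adjacent samples and 124 to 209.7 in tumours). None of 4 tested T cell markers passed in limma, and 0 had an unadjusted p under 0.05 (3.77 to 7.48 in adjacent samples and 5.39 to 19.3 in tumours), and of 4 tested B cell markers 2 fell and none rose, and 3 fell under each other scaling (114 to 385 in adjacent samples and 28.7 to 463 in tumours). The other list counts of 0 given here were also 0 at an unadjusted p under 0.05. None of the markers in the table was at 0 in any library. The 100 highest genes took 26.6% to 29.2% of the total FPKM in adjacent samples and 22.7% to 24.1% in tumours. The part of these cell types and of that share in the changes of the cycle genes was not tested.

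Tumour 2, the library with low Idh2 and Idh3a and high Idh1, also had the highest tumour sums of the pan-epithelial (6199.9, against 3987 to 5178 in the other 4), colonocyte (978 against 128 to 507), fibroblast (1013 against 599.6 to 862), macrophage (756 against 445 to 537), T cell (19.3 against 5.39 to 8.76) and B cell markers (463 against 28.7 to 134). Its goblet cell (4291 against 1461 to 4158) and endothelial sums (57.6 against 36.2 to 53.8) were the highest as well. The goblet cell ranking held for the sum only. By the mean of log2 values over the goblet cell markers, tumour 4 was the highest (8.95, against 8.78 in tumour 2). The neutrophil sum of tumour 2 was the lowest of the tumours (140.4 against 171 to 447). By the mean of log2(FPKM + 1) over the neutrophil markers, tumour 1 was the lowest (4.25, against 4.31 in tumour 2). The smooth muscle sum of tumour 2 lay between the others (183, with 124 to 209.7). The part of these cell types in the cycle gene levels of tumour 2 was not tested.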

How the data were processed

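Polyadenylated RNA of the 10 libraries was sequenced on an Illumina instrument from libraries of the TruSeq RNA kit v2, per the labels' protocols; this kit does not mark strand. The authors deposited FPKM per gene, per the file headers. The submitters' processing notes list mm10, DESeq2 1.14.1 and edgeR 3.16.5, then Salmon 0.8.2 and RSEM 1.2.15, and also GATK, Cufflinks 2.2.1 and TopHat2 2.1.0, without saying which made the table. A line of text in place of values was left out. Depth is not stated. Steps between low values of short genes with a single transcript gave a rough 20600000 to 26400000 fragments per library. Each estimate was the depth, within a preset range, that best brought those values to whole fragments. At that depth 53.0% to 65.2% of the values lay within 0.2 of a whole fragment. Evenly spread values would give 40% at a depth fixed beforehand, and more at one chosen from them, so this share does not check the estimate. By this rough estimate the lowest cycle enzyme in a library had 811 to 1409 fragments per kilobase. Total FPKM was 462009 to 484712 per library, and no pair of libraries held the same values.

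From the deposited FPKM, log2(FPKM + 1) was modelled by tissue alone in limma 3.58.1 (R 4.3.3; trended, robust empirical Bayes) for the 13016 genes averaging 1 FPKM or more. P-values are two-sided, adjusted after Benjamini and Hochberg over those genes, with a threshold of 0.05. Rose and fell refer to calls at that threshold, and log2 changes are tumour minus adjacent on this scale, which understates those of low genes. The fit was tested on simulated data. Ratios were tested by exact permutation over samples. Alternatives were other pseudocounts (0.1 and 5; 1 for ratios), no filter, subtracted medians, quantile normalization, the replicate number as a block, and leaving out each library. The 9 genes and all lists were chosen with earlier results of these data known. Named were 20 cycle genes, the pan-epithelial markers and, for each other list, up to 2 largest rises and 2 largest falls past the threshold. Positions are from GENCODE M21 (GRCm38, the same coordinates as mm10). Proteins and mutations were not analysed here, and some genes are not reported here.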

Additional observations from a re-analysis of the deposited data

Results flagged for a closer look

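The value of Idh3a in tumour 2, 63.5 FPKM, lay far below the other 4 tumours, which ranged from 96.7 to 109 FPKM. The log2 ratio of Idh2 to Idh1 in tumour 2, -1.68, lay far below the other 4 tumours, whose lowest was -0.39. Of 48 groups of 5 values examined in this way, 2 were picked out, and about 1 in 20 would be by chance alone.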

How the results depend on the processing

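The counts of 4 falls and 3 rises among the 9 enzymes were the same under every alternative run but subtracted medians, which gave 6 and 0. Over all genes 8693 to 11708 passed, with 9951 in the reported fit. The 11708 came from the run with no filter on low values, which tested more genes than the 13016 of the reported fit. With medians subtracted the log2 change reversed for Mdh2 (-0.29), Aco1 (-0.26), Sucla2 (-0.26) and Pck2 (-0.061), and with quantile normalization for Aco1 (-0.095), Sucla2 (-0.054) and Pck2 (-0.071). The labels do not say that like numbers share an animal. The correlations of same-numbered deviations were 0.022 to 0.42, with 4 of 10 samples closest to their own number. These values do not settle whether like numbers share an animal, which remains unknown. The numbers were not taken as pairs in the reported fit. Nnt, among the other sources of NADPH, was at 13.61 FPKM in adjacent sample 5 and 17.12 FPKM in tumour 5. The other adjacent samples had 3.76 to 5.08 FPKM and the other tumours 6.32 to 8.91 FPKM. Blocking by replicate number lowered the limma adjusted p of Nnt from 0.105 to 7.09e-04. Among the 9 enzymes it lowered that of Idh2 from 0.0056 to 6.69e-04, of Idh3a from 0.0107 to 0.00132 and of Fh1 from 0.211 to 0.0697. Those of Mdh1 and Mdh2 were lowered as well. It raised that of Idh1 from 0.00818 to 0.0333, and also those of Cs, Suclg1 and Ogdh. With the replicate block limma again called 4 falls and 3 rises among the 9 and 10067 genes in all, while Dlst passed (limma adjusted p = 0.0231) and Pck2 did not (0.0539). For the ratios of Mdh2 to Mdh1 (0.47) and Suclg2 to Sucla2 (-1.14), an exact test over 5 pairs gave an adjusted p of 0.0833; so few pairs cannot pass. Leaving out each library in turn, Mdh2 to Mdh1 differed by 0.46 to 0.49 and Suclg2 to Sucla2 by -1.24 to -1.004, and both passed each time; Idh2 to Idh1 differed by 0.041 to 0.46 and passed without tumour 2, and Idh3a to Idh2 by -0.28 to -0.16 and passed without adjacent sample 5.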
